A study of Canis lupus familiaris with 32 samples.

Results

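ENSCAFG00000011534 is 1 of 24580 dog genes, listed by Ensembl gene ID only, whose expression was followed over 32 libraries of hip tissue. The files and the reference table used here pair none of the IDs with a symbol (0 matched), so the gene's name, product and position are not stated. The gene was chosen by its measured level, which was high in embryonic hip, in young dogs and in affected capsule and low in control capsule. Levels and differences that show this pattern are therefore given as a description, without a test. The comparisons among affected and control ligaments were not part of the pattern and were tested. Capsule and ligament were compared within dogs, with the test read without the control dog, whose capsule belongs to the pattern. Young libraries and affected capsules belong to it too, so this test is no independent support for a difference between tissues.

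Developmental dysplasia of the hip is a loose or malformed joint that arises during growth, and dogs develop it naturally. The joint capsule is the fibrous sleeve that holds the femoral head in the socket, lined inside by synovium. The teres ligament is a cord of dense connective tissue inside the joint, between the femoral head and the acetabulum. Both tissues grow and lay down collagen before and after birth, and turn over slowly in the adult.

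Strand-specific libraries of RNA freed of ribosomal RNA came from 25 dogs (Canis lupus familiaris). Control capsules (n = 5) and control ligaments (n = 3) were from adult dogs labelled control. Affected capsules (n = 4) came from 1 adult and 3 dogs aged 4 months, and affected ligaments (n = 7) from 4 adults and 3 dogs aged 4 months. Young capsules (n = 6) and young ligaments (n = 4) came from dogs under 1 month of age, and the embryonic hips (n = 3) were from embryos, with no separation of capsule and ligament in the labels. No treatment, breed or adult age in years is used here, and the labels do not say whether the young dogs later became affected. Dog identifiers in the labels differ among replicates of a group, and 7 dogs supplied capsule as well as ligament. Total fragments per library ran from 2857235 to 9895143. Without gene names, marker genes of cartilage, muscle, fat or blood could not be read, so the labelled tissues were not checked against markers. In these bulk samples, fewer cells that express the gene and less RNA per cell cannot be told apart.

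Across the 7 groups, the level of the gene ran from 0.598 to 1350 CPM (fragments of the gene for every 1e+06 of the library, after TMM scaling of the library total, which balances library composition). By median CPM the order from low to high was control capsule at 11.1, control ligament at 131, affected ligament at 156, affected capsule at 161, young capsule at 414, young ligament at 855 and embryonic hip at 1249. Affected capsule and affected ligament had nearly the same median, and both lay between the control and the young groups. The order is a description of the pattern by which the gene was chosen. Of the 6 neighbouring pairs in it, only control capsule and control ligament had ranges that did not overlap.

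**Figure D1:**
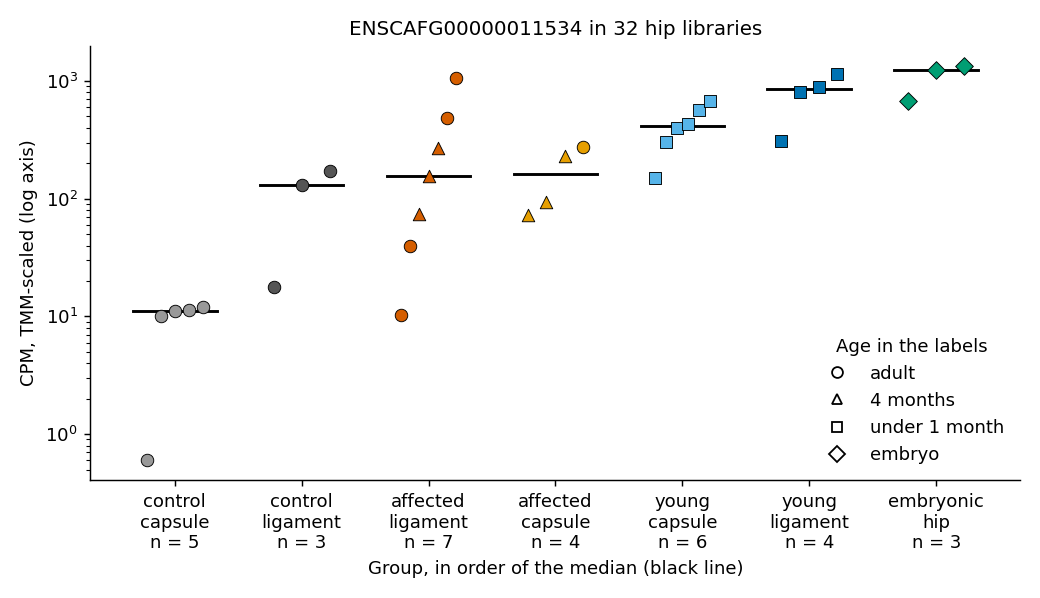
CPM of ENSCAFG00000011534 on a log axis in each of 32 libraries, by group in order of the median (black line), with symbols for the age class in the labels. Control capsules sit at or below 11.97 CPM and embryonic hips at or above 671 CPM, while affected ligaments run from 10.3 to 1056 CPM.

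In control capsules the gene stood at 11.1, 11.4, 0.598, 11.97 and 10.02 CPM in replicates 1 to 5. Replicates 1, 2, 4 and 5 lay close together, and replicate 3 held 3 fragments in all. The exact 95% counting interval of that library was 0.123 to 1.75 CPM, below the intervals of the other 4 control capsules, whose lowest bound was 7.46 CPM. Counting intervals cover counting error only, since the libraries carry no molecular identifiers.

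In affected capsules the gene stood at 275 CPM in the adult dog (replicate 1) and at 72.8, 93.0 and 229 CPM in the dogs aged 4 months (replicates 2 to 4). Every affected capsule lay above every control capsule. The group means were 167 ± 99.7 CPM (SD, n = 4) and 9.03 ± 4.77 CPM (n = 5), 18.5-fold apart, and 14.6-fold to 22.04-fold apart with 1 library left out at a time. The 3 dogs aged 4 months averaged 132 ± 85.0 CPM (n = 3), and the adult affected dog, the only library that matches the controls in age class, was the highest of the 4. Of the genes tested in this contrast, 0.236% were called at an edgeR adjusted p under 0.05. Of 14345 genes kept over all groups, 1.3% lay higher in every affected than in every control capsule. The contrast was used to choose the gene, and nothing is read from these shares.

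Young capsules held 569, 150, 399, 429, 679 and 302 CPM in replicates 1 to 6, a mean of 421 ± 188 CPM (SD, n = 6). All lay above the control capsules, and the means differed 46.7-fold. The lowest young capsule, replicate 2, lay within the range of the affected capsules, and the other 5 lay above all 4 of them. Among the genes kept, 9.22% were higher in every young than in every control capsule, and 38.4% of the genes tested were called between these groups in either direction.

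Young ligaments held 898, 307, 1151 and 812 CPM in replicates 1 to 4 (mean 792 ± 354 CPM, SD, n = 4). Control ligaments held 173, 131 and 17.8 CPM (mean 107 ± 80.4 CPM, n = 3). The groups did not overlap, and their means differed 7.38-fold. The fold was 5.20 without control replicate 3 and 10.6 without control replicate 1. Of the genes kept, 12% were higher in every young than in every control ligament, and 10.3% of genes tested were called in either direction.

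Embryonic hips held 1350, 1249 and 671 CPM in replicates 1 to 3. The highest mean of any group was found here, at 1090 ± 366 CPM (SD, n = 3). Replicates 1 and 2 were the highest of the 32 libraries, and replicate 3 lay within the range of the young ligaments. The mean was 121-fold that of control capsules and 10.2-fold that of control ligaments. The labels of the embryonic libraries do not separate capsule and ligament, so tissue and age cannot be told apart in these ratios. Non-overlap of this kind was common, since 28% of the genes kept were higher in every embryonic hip than in every control capsule.

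On the authors' deposited FPKM (fragments per kilobase of transcript, after the deposited scaling of each library), ENSCAFG00000011534 was compared with other genes per unit of length. It stood lower in the list in control capsules than in affected capsules and embryonic hips. In control capsules its FPKM was 0.132 to 2.09, above 37.8% to 51.7% of all listed genes. Only 14345 of the listed genes passed the filter on low counts, and replicate 3 passed 37.8% of the list with 3 fragments. The shares therefore do not show a middle level among expressed genes. In affected capsules it was 13.96 to 46.1, above 78.0% to 94.0% of genes. In the embryonic hips it was 121 to 240, which ranked it between 233 and 437 among 24580 genes. The adult affected ligament of replicate 3, at 184 FPKM, ranked 336, next to the embryonic hips and to the highest young ligament at rank 324.

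Control tissues differed from each other in level. All 3 control ligaments lay above all 5 control capsules, and the means of 107 and 9.03 CPM differed 11.9-fold. A like separation, with ligament higher, held for 2.97% of the genes kept. Low control capsules are part of the pattern that chose the gene, so this difference was not tested. One dog gave a library to each group, control capsule replicate 3 and control ligament replicate 1. Its capsule held 3 fragments and its ligament 855, a ratio of 290 in CPM (exact 95% counting interval 98.9 to 1409).

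In ligament, unlike capsule, the affected and control libraries overlapped. Affected dogs averaged 299 ± 372 CPM (SD, n = 7) against 107 ± 80.4 CPM (n = 3) in controls. The adult affected ligaments, replicates 1 to 4, held 39.996, 486, 1056 and 10.3 CPM. The ligaments of dogs aged 4 months, replicates 5 to 7, held 156, 74.6 and 271 CPM. Affected ligaments lay on both sides of the controls, with 13 of the 21 affected and control pairs higher in the affected library. The lowest affected ligament was at the level of the control capsules and the highest reached the level of embryonic hip.

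With edgeR's quasi-likelihood test over 12937 genes, the affected against control ligament difference of the gene was a log2 fold change of 1.52 (SE 1.15, 95% interval -0.96 to 4.01, adjusted p = 0.694). The mean log2 CPM did not differ beyond the spread between libraries either (two-sided exact permutation p = 0.6, adjusted over 4 comparisons 0.914). In this comparison edgeR called 0% of genes, although 1058 passed 0.05 before adjustment, and DESeq2 called 10 genes (0.0838%). The interval includes changes in either direction, and the ligament data do not fix the size of an effect. For the capsules, the ratio of the means was 4.21 on the log2 scale. Whether the capsule and ligament differences of this gene differ was not tested, because the capsule contrast chose it.

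At matched age class, the 4 adult affected ligaments averaged 398 ± 490 CPM (SD, n = 4). Against the 3 control ligaments the log2 fold change was 1.94 (SE 1.43, 95% interval -1.35 to 5.23, edgeR adjusted p = 0.447). Replicates 2 and 3 lay above all controls, replicate 1 lay within their range and replicate 4 lay below it. The exact permutation test gave p = 0.743, where 4 libraries against 3 cannot go below 0.0571 (adjusted over 4 comparisons 0.914). Here too edgeR called 0% of genes, 2374 passed 0.05 before adjustment, and DESeq2 called 66 genes (0.611%). The share of 0% depended on the setting, since edgeR called 1850 genes without control replicate 3, and voom with library quality weights called 738. The gene was not called in those fits (adjusted p = 0.589 in edgeR and 0.804 in limma voom). Without affected replicate 3, the highest library, the log2 value was 0.78, and it was 0.72 for the 7 affected ligaments without that library.

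Age within affected ligaments did not separate the libraries. Dogs aged 4 months averaged 167 ± 98.7 CPM (SD, n = 3), and all 3 lay above adult replicates 1 and 4 and below adult replicates 2 and 3. The log2 fold change of 4 months over adult was -1.26 (SE 1.39, 95% interval -4.54 to 2.02, edgeR adjusted p = 0.573). The difference of mean log2 CPM had the opposite sign, 0.27 (two-sided exact permutation p = 0.914, also 0.914 adjusted over 4 comparisons, with 0.0571 the smallest possible). In the same fit 14.6% of genes (1841) were called, and the gene was not among them. The number called depended on single libraries, being 803, 826, 549 and 845 without affected replicates 2, 3, 6 and 7.

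**Figure D2:**
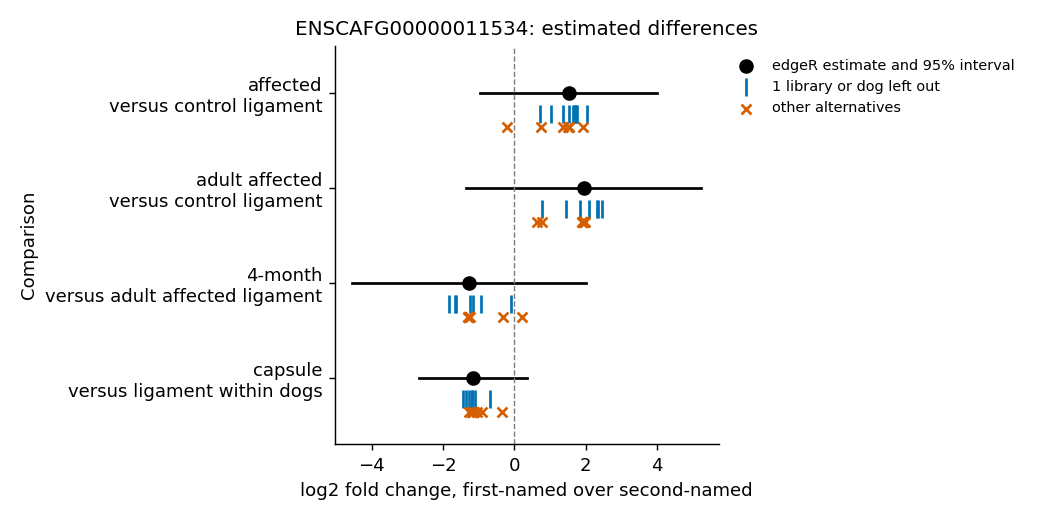
Estimated log2 fold changes of ENSCAFG00000011534 in 3 ligament comparisons and between tissues of the 7 dogs that gave both, the control dog included, with 95% intervals (black), values with 1 library or dog left out (blue bars) and values under other alternatives (orange crosses). All black intervals cross 0, and those of the 3 ligament comparisons are the widest. The black interval between tissues, -2.68 to 0.35, includes the control dog and is not read as a test. Without that dog the interval, which is not drawn, was -1.21 to -0.17, and the difference did not pass the adjustment over all genes.

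Within the dogs that gave both tissues, the gene was lower in capsule than in ligament in 6 of 7. The young dogs held 569 and 898 CPM, 150 and 307 CPM, and 302 and 812 CPM in capsule and ligament. The dogs aged 4 months held 72.8 and 156 CPM, 93.0 and 74.6 CPM, and 229 and 271 CPM. The control dog held 0.598 and 173 CPM. Over the 7 dogs, with the dog as a block, the log2 fold change of capsule over ligament was -1.16 (SE 0.67), a fit in which 2.92% of genes were called. This value includes the control dog, whose low capsule is part of the pattern that chose the gene, and it is given without a test. Over the other 6 dogs the value was -0.69 (SE 0.23, 95% interval -1.21 to -0.17), and it did not pass the adjustment over all genes (edgeR adjusted p = 0.262, with 2.36% of genes called). The capsule was lower in 5 of these 6 dogs, as it was for at least 5 of the 6 in 15.4% of the genes kept. The two-sided exact permutation test of their within-dog log2 differences gave p = 0.0938, which was 0.375 adjusted over 4 comparisons. Of these libraries, the young ones and the affected capsules also belong to the pattern that chose the gene, which limits both tests.

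The young dogs and the affected dogs were also fitted apart. In the 3 young dogs the ligament was 1.58-fold, 2.04-fold and 2.69-fold higher than the capsule. There the log2 fold change of capsule over ligament was -1.04 (SE 0.19, 95% interval -1.49 to -0.58, edgeR adjusted p = 0.0339), and 3.86% of genes were called. The exact permutation test gave p = 0.25, the smallest that 3 dogs allow. In the 3 affected dogs it was -0.34 (SE 0.33, 95% interval -1.09 to 0.40, adjusted p = 0.731), with 1.26% of genes called. The difference between the young and the affected dogs was not tested. The levels of the young libraries and of the affected capsules belong to the pattern that chose the gene, so these values are no independent support for a difference between tissues.

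**Figure D3:**
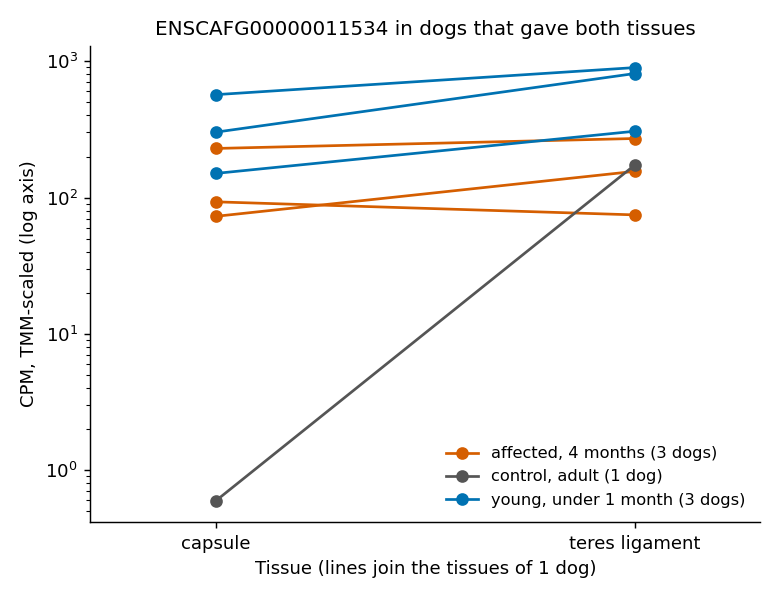
CPM of ENSCAFG00000011534 on a log axis in capsule and teres ligament of the 7 dogs that gave both, with 1 line per dog. The line of the control dog rises from 0.598 to 173 CPM, the 3 young dogs all rise, and 1 affected dog falls from 93.0 to 74.6 CPM.

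The order of the dogs was compared between tissues. The 3 young dogs had the same order in capsule as in ligament. The young dog with the lowest capsule of 6 also had the lowest ligament of 4, and the labels give it an identifier that begins like those of the 3 affected dogs aged 4 months. What that beginning stands for is not given. Among those 3 affected dogs, 1 dog was highest in both tissues and the other two changed places. With 3 dogs a group, no correlation was computed.

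Libraries of the same group differed more in this gene than in most others. The SD of log2 CPM within groups, pooled over the 7 groups, was 1.49, against a median of 0.45 over the 14345 genes kept, and 99.5% of those genes had a smaller value. In affected ligaments the SD was 2.25, the highest and lowest library differed 102-fold, and 99.9% of genes varied less. In control ligaments the SD was 1.78 and in control capsules 1.59, where 99.3% and 98.8% of genes varied less. The control capsule value rests on replicate 3, at a log2 CPM of -0.02, while the other replicates lay close together, between 3.38 and 3.63. In embryonic hips, young capsules and young ligaments the SDs were 0.55, 0.77 and 0.84, with 90.9%, 91.2% and 93.2% of genes below. In affected capsules the SD was 0.94 and 86.9% of genes varied less. The coefficient of biological variation that edgeR assigned to the gene was 0.809, against 0.321 on the trend for genes of its level.

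**Figure D4:**
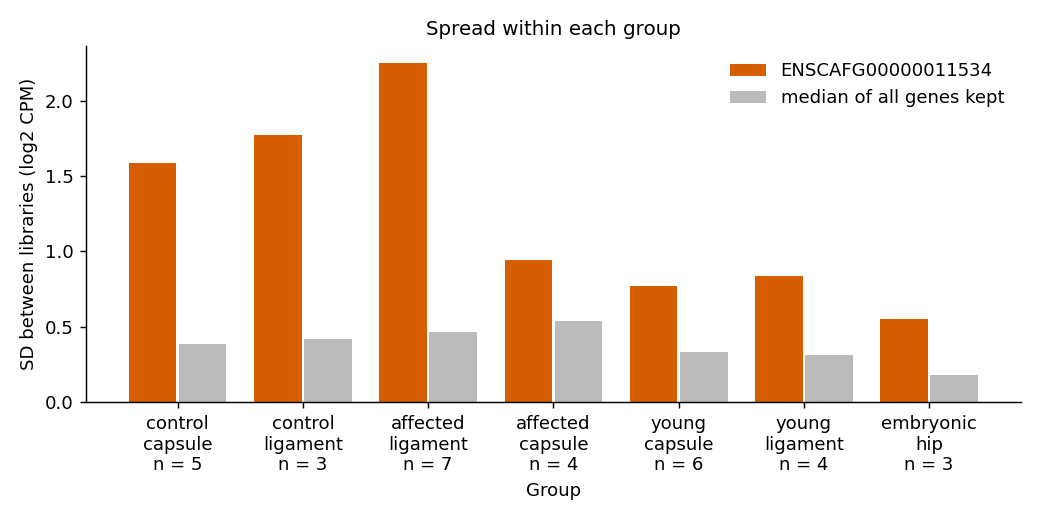
SD of log2 CPM between libraries of each group for ENSCAFG00000011534 (orange) and the median of that SD over all genes kept (grey). The orange bar is taller in all 7 groups, from 0.55 in embryonic hip to 2.25 in affected ligament.

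The authors' deposited table holds scaled fragments beside FPKM, and their quotient shows the length by which the fragments of a gene were divided in a library, up to a constant. Among 4943 genes with at least 100 fragments in at least 27 libraries, 68.8% kept this quotient constant to within 0.1% (coefficient of variation). For ENSCAFG00000011534 it ran from 24.7 to 32.1 over the 25 libraries with at least 100 fragments, a coefficient of variation of 6.04%, and 89.2% of those genes varied less. The lowest quotient was in control ligament replicate 2, at 24.7, and the highest was in affected ligament replicate 2, at 32.1. What made the quotient vary was not tested. Embryonic hips lay close together at 27.7 to 28.1. The quotients of young capsules (26.9 to 29.5), young ligaments (26.3 to 30.1) and affected capsules (26.0 to 30.8) overlapped. On FPKM the affected capsule mean was 28.9 ± 16.0 (SD, n = 4) and the control capsule mean 1.49 ± 0.779 (n = 5).

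Genes with a like pattern were sought by the Pearson correlation of log2 CPM with ENSCAFG00000011534 over the 32 libraries. The libraries share groups and, in 7 dogs, the animal, so the values are descriptions. Of 14344 other genes, 8 had r of at least 0.8 and 4 had r of -0.8 or less, and the median was 0.02. The gene most like it was ENSCAFG00000020074 (r = 0.85), followed by ENSCAFG00000006634 (r = 0.84). The groups lie apart on this measure, and with each group centred at its own mean the values were r = 0.75 and r = 0.62, ranks 1 and 14. Without the 2 libraries farthest from the median of ENSCAFG00000011534 they were 0.81 and 0.76. Of the 50 genes with the highest r over all libraries, 11 were also among the 50 highest with groups centred.

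ENSCAFG00000020074 had a far narrower range than ENSCAFG00000011534. It averaged 8.78 ± 1.36 CPM (SD, n = 5) in control capsules, 12.9 ± 2.71 CPM (n = 4) in affected capsules and 23.7 ± 6.45 CPM (n = 4) in young ligaments, its highest group. Embryonic hips, at 16.3 ± 2.25 CPM (n = 3), were below the young ligaments in mean. ENSCAFG00000006634 averaged 2.78 ± 1.21 CPM (n = 5) in control capsules, 15.4 ± 12.6 CPM (n = 4) in affected capsules and 26.9 ± 6.03 CPM (n = 4) in young ligaments. Its embryonic mean of 14.9 ± 6.4 CPM (n = 3) was also below that of young ligaments. For both genes the lowest of the 32 libraries was control capsule replicate 3, at 6.98 and 0.798 CPM, as it was for ENSCAFG00000011534. In the 3 ligament comparisons neither gene was called. In both comparisons of affected with control ligament edgeR called 0% of all genes, so the missing call says little about these genes. ENSCAFG00000006634 had log2 fold changes of 1.16 (SE 0.52) over all affected ligaments and 1.21 (SE 0.37) in adults. Those of ENSCAFG00000020074 were 0.48 (SE 0.29) and 0.43 (SE 0.35). Between dogs aged 4 months and adults, where 14.6% of genes were called, the values were -0.12 (SE 0.59) and 0.14 (SE 0.31). Within the 7 dogs, capsule over ligament was -0.49 on the log2 scale for ENSCAFG00000020074 (SE 0.16) and -0.76 for ENSCAFG00000006634 (SE 0.31). Those values include the control dog and are given without a test. Both genes were picked by their r over these same libraries, so their likeness in any comparison is no independent support.

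**Figure D5:**
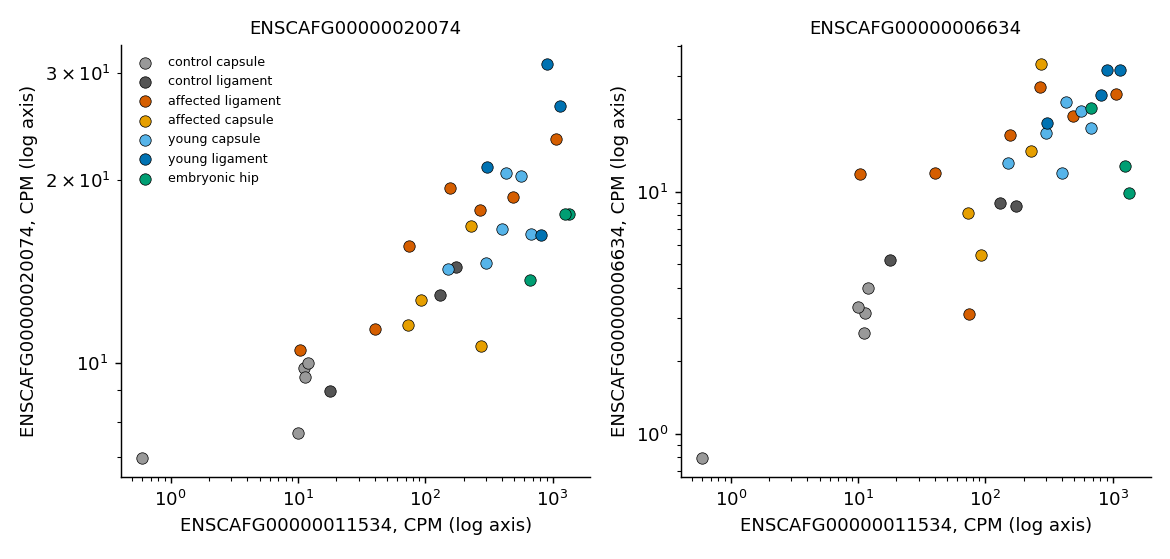
CPM of the 2 genes most like ENSCAFG00000011534 against its own CPM, both on log axes, with 1 point per library coloured by group. Points rise from control capsule at the lower left to young ligament at the upper right, and embryonic hips lie below the young ligaments of like level on the horizontal axis.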

How the data were processed

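The tools named in the submitters' processing notes are cutadapt 1.8, Bowtie2 2.2, TopHat2 (version 2.0.13) and Cuffdiff (version 2.2.1), with the build canFam3. What each tool did, the annotation release and the strand setting are not given in the sources used. The authors deposited, per the file headers, an estimated count of fragments per gene and library, a scaled fragment signal (each library's counts over a single factor) and FPKM. Estimated counts were whole except 0.332% of values (tolerance 1e-06), none of this gene, and were rounded. Fragments shared with a near-identical or overlapping gene cannot be recognised without names.

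Each comparison was fitted over all genes with edgeR 4.0.16 (filterByExpr, TMM, robust quasi-likelihood F test, Benjamini-Hochberg, threshold 0.05) in R 4.3.3, after the fits were tested on simulated data. The simulation gave all genes the same spread, below that of this gene. It does not show how often a change in this gene would be called. Levels use TMM over all 32 libraries. Log2 CPM has a prior count of 2. Alternatives used DESeq2 1.42.0, limma 3.58.1 (log2 of FPKM plus 1; voom weights), other scaling, no filter and left-out libraries. The 7 dogs were paired by the labels' dog identifiers. The gene and the lists were chosen with earlier results of these data known. By rule, the named genes were this gene and the 2 with the highest Pearson r. Replicates are separate dogs by the labels.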

Additional observations from a re-analysis of the deposited data

Results flagged for a closer look

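Control capsule replicate 3, at 0.598 CPM of ENSCAFG00000011534, stood apart from the other 4 control capsules (10.02 to 11.97 CPM). Its gap to the nearest library was 0.828 of the group's range, above the 95% limit of 0.71 for 5 samples, which chance passes in about 1 in 20 groups. The 10 checks covered CPM and the quotient of scaled fragments to FPKM in the 5 groups of 4 to 7 libraries. The library totalled 4819775 fragments, and the ligament of the same dog was at 173 CPM. Without it the affected capsules were 15.04-fold above the control capsules.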

How the results depend on the processing

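Of 99 alternative values, 94 were counted as unchanged, a total that does not measure how firm the results are. Tested comparisons had to keep direction and side of the threshold, and most did so by staying uncalled. Contrasts given without a test had to move by less than the spread, and no spread was set for r. Those contrasts gave 12 (affected against control capsule), 13 (young against control capsule) and 9 (young against control ligament) of the values. They belong to the pattern that chose the gene. Affected against control ligament turned to a log2 value of -0.20 with voom library weights, and 4 months against adult turned to 0.22 on log2(FPKM + 1); neither is called, and the cause was not tested. The capsule and ligament difference was called in the young dogs alone (-1.04, edgeR adjusted p = 0.0339, 3.86% of genes called, exact permutation p = 0.25). Young libraries belong to the pattern that chose the gene, so this call is no independent support. The r of ENSCAFG00000006634 was 0.75 by Spearman and 0.92 over 7 group means, where it ranked 197 and 70, and ENSCAFG00000020074 ranked 36 and 225. With 1 library left out, log2 values ran from 0.72 to 2.05 (affected against control ligament), 0.78 to 2.46 (adults) and -1.83 to -0.08 (4 months against adult), none called. With 1 dog left out, capsule against ligament ran from -1.43 to -0.69. Only the value of -0.69 leaves out the control dog, and it was not called. With the replicate block, both ligament case comparisons came to the same 6 libraries, with a log2 value of 1.92 (adjusted p = 0.727) and 204 genes called in place of 0. This fit is counted under each of them in the total. In capsule no block was fitted, and the mean log2 CPM difference of same-numbered affected and control libraries was 4.50. It leaves out control replicate 5 and is another measure than the 4.21 from the ratio of means. Without the dog as a block the tissue difference was -0.92. Same-numbered ligaments deviated with r of -0.08, -0.18 and 0.49, values from groups too small to decide on a pairing. By the labels, same-numbered affected and control ligaments came from different dogs. No block could be fitted for 4 months against adult, which share no number. Between tissues of the 7 dogs, 368 genes were called, against 598 with DESeq2 and 771 with voom weights. These fits include the control dog, so nothing is read from them for this gene. The depth limits control capsules most, at 3 to 58 fragments each.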
